A study of Rattus norvegicus with 24 samples.

Results

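The ovulation trigger was examined by comparing cumulus-oocyte complexes of rats given gonadotropin-releasing hormone, equine chorionic gonadotropin and human chorionic gonadotropin (GnRH+eCG+hCG, here the hCG group) with those of rats given the same first hormones without hCG (GnRH+eCG). The 12 arrays were all those labelled with either treatment, 6 rats in each group, out of 24 arrays in the study, and 7104 of 22226 probes were tested because they were detected on at least 6 of the 12 arrays. The 6 hCG animals were rats 10 to 12 and 22 to 24, and the 6 GnRH+eCG animals were rats 7 to 9 and 19 to 21. All were sexually mature female Sprague Dawley rats, 1 array stood for each rat, and both groups had received GnRH and eCG. The study also had 6 rats given GnRH alone and 6 untreated controls, which entered here only through the joint normalization and the shared estimate of the spread. The sources used here do not state doses, the times between hormones and collection, or how many complexes each rat gave.

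A cumulus-oocyte complex is an oocyte inside a coat of specialised granulosa cells, the cumulus cells, which feed it through gap junctions and keep it arrested in meiosis. The surge of luteinizing hormone, which hCG imitates at the same receptor, acts first on the mural granulosa cells of the follicle wall. These cells release EGF-like growth factors that act on the cumulus, where prostaglandin synthesis and a hyaluronan-rich matrix follow, the coat expands, the oocyte resumes meiosis and the follicle ruptures. Equine chorionic gonadotropin acts in the rat mainly through the receptor of follicle-stimulating hormone, and follicles grow under it before that event.

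Signals are log2 units after background correction and quantile normalization, so a difference of 1 is a 2-fold change. The range over 6 rats is given with the median, differences are hCG group minus GnRH+eCG with their standard error (SE), and each adjusted p comes from 1 limma fit with Benjamini-Hochberg adjustment over the 7104 probes. A gene was called higher or lower at an adjusted p under 0.05. Each of the 12 arrays detected 26.8% to 36.3% of its probes. Rats 7 to 12 had median raw signals of 176.7 to 235.4, above the 140.5 to 153 of rats 19 to 24, and either set held 3 rats of each group. The label was checked against markers. On the array, 7 of 9 oocyte markers and 10 of 11 granulosa and cumulus markers passed the detection filter. Markers of other cells passed too: 8 of 12 theca and stroma, 4 of 7 mural granulosa and 3 of 7 erythrocyte markers. Leukocyte (4 of 15), oviduct (2 of 10) and endothelial (2 of 9) markers passed less often. In hCG rats, signals summed to 1956 to 3265 for oocyte, 4862 to 9585 for theca and stroma and 7801 to 11008 for erythrocyte markers. In GnRH+eCG rats these sums were 3826 to 14464, 4076 to 7748 and 5327 to 25036. The purity of the complexes was not tested.

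The response to hCG was broad. Of the 7104 probes, 1389 were higher (19.6%) and 1504 lower (21.2%) in the hCG group, together 40.7% of those tested, and 724 of them differed by 2-fold or more. The largest changes ran mostly one way, with 97 probes at least 4-fold higher and 14 at least 4-fold lower, and 23 against 2 at 8-fold. Over genes, each taken by its brightest tested probe, 1017 of 4924 were higher (20.7%) and 1105 lower (22.4%), together 43.1%, with a median difference of -0.02. The 6 values of one group lay wholly to one side of the other 6 for 1529 probes (21.5%). Of the 4211 probes not called, 93.5% had a 95% confidence interval inside a 2-fold change. These shares are the background for every count of genes below. Fold sizes depend on the background correction: without it, 375 probes in place of 724 reached 2-fold, and Ptgs2 stood at 21.6-fold in place of 35.6-fold. A fold given below as "at least" is a bound after this correction only, and the fold can be smaller without it.

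**Figure D1:**
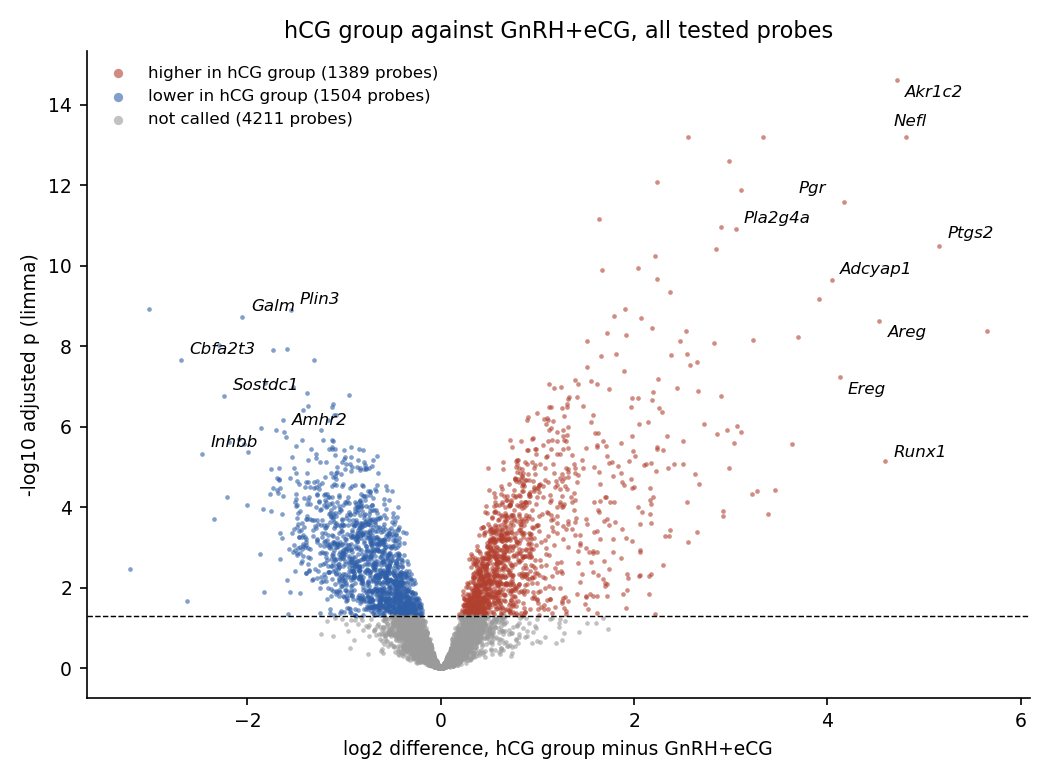
Difference between the hCG group and GnRH+eCG for 7104 probes (x axis, log2 units; n = 6 rats each) against the adjusted p from limma (y axis, -log10; the dashed line marks 0.05). Red points are 1389 probes higher in the hCG group, blue points 1504 lower and grey points 4211 not called; the largest rises extend past 4 log2 units.

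Of 7 tested genes of EGF-like ligands, their receptor and its regulators, 5 were higher and 1 lower, with a median difference of 1.30. The ligand genes Btc, Hbegf and Egf were detected on 0 of the 12 arrays. Areg, which encodes the ligand amphiregulin, lay between 8.67 and 12.22 (median 11.58) in the hCG group and between 6.21 and 7.04 (median 6.83) in GnRH+eCG, where it was detected on 1 of 6 arrays. The groups did not overlap, although hCG rat 11 lay far under the other hCG rats, and the difference was 4.54 ± 0.37 (adjusted p = 2.31e-09). Ereg, the ligand epiregulin, showed the same shape, at 9.62 to 12.12 (median 11.94) in the hCG group and 6.49 to 8.22 (median 7.39) in GnRH+eCG, a difference of 4.13 ± 0.41 (adjusted p = 5.89e-08), again with rat 11 lowest. The ligand Tgfa rose by 1.24 ± 0.17 and the receptor Egfr by 1.30 ± 0.14. Adam10, a sheddase that can release such ligands, differed by -0.18 ± 0.09 (adjusted p = 0.133).

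Feedback on this pathway split by gene. Errfi1, an inhibitor that binds the activated EGF receptor, lay at 10.17 to 11.29 (median 11.15) in the hCG group and 7.27 to 8.33 (median 7.74) in GnRH+eCG, and it rose by 3.22 ± 0.52 (adjusted p = 4.76e-05). Of 13 tested genes of MAP kinase feedback, 6 were higher and 3 lower (median difference 0.71). The receptor tyrosine kinase antagonist Spry2 rose by 1.77 ± 0.25, and the nuclear ERK phosphatase Dusp5, detected in all hCG rats and 0 GnRH+eCG rats, was at least 4.31-fold higher. The pseudokinase Trib2 lay at 9.60 to 10.37 (median 10.07) in the hCG group and 11.73 to 12.48 (median 12.13) in GnRH+eCG and the groups did not overlap; the difference was -2.03 ± 0.26. The Ras-related protein Rasd1 differed by -1.86 ± 0.22. Dusp1 differed by 1.43 ± 0.73 (adjusted p = 0.123) with overlapping groups; a fit to the 12 arrays alone, without GnRH and control rats, gave the same difference at adjusted p = 0.00696.

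The candidate promoters were those of the 10 largest rises detected on at least 4 arrays of each group without overlap, with the risen genes named from the EGF, prostaglandin and transcription factor lists, so they range from Hif1a (0.66) to Ptgs2 (5.15) and leave out other large rises such as Nefl (4.82). They were read for the cAMP response element, since the luteinizing hormone receptor raises cAMP. RefSeq promoters on rat build GRCr8, from 250 bases before to 50 after the gene start, were held for 17 of 18 candidate genes, and 4 of them contained the shorter site TGACG or its reverse complement CGTCA. These 4 are printed 5′ to 3′ on the gene's strand with the matches in capitals. Areg carries the full palindrome TGACGTCA, which counts as 2 overlapping shorter sites and starts at -91. Its window is chr14:17265592-17265891 (minus strand), and those of Errfi1, Pvr and Cebpb are chr5:166606591-166606890 (plus), chr1:88704592-88704891 (minus) and chr3:176816755-176817054 (plus), with first matches at -56, -18 and -234.
Areg: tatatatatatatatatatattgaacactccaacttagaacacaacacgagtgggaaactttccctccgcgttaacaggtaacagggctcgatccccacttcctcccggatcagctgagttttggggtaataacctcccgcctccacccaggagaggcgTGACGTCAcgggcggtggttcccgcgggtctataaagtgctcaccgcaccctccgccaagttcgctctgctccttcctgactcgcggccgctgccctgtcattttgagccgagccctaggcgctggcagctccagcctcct
Errfi1: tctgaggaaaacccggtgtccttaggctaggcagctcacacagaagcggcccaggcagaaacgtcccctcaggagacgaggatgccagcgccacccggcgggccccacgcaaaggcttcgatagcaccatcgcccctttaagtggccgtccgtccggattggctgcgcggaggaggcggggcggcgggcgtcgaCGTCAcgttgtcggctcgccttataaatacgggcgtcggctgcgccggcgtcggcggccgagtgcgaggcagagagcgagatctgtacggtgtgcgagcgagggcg
Pvr: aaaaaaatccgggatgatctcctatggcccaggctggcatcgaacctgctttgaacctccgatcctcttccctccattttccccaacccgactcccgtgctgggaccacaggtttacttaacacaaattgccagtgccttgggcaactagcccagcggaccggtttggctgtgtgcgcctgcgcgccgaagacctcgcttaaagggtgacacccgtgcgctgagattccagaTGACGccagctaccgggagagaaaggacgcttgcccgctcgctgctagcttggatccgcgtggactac
Cebpb: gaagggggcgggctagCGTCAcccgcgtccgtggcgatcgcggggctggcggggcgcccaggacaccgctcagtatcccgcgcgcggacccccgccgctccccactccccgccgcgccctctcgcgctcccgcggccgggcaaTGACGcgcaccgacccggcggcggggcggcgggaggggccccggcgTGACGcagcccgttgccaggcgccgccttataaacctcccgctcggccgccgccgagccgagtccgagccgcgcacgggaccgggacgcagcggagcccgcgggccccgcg
The full element was present in 4 of 62 promoters of genes at least 4-fold higher (6.45%), in 3.88% of tested genes and in 1.83% of all 33469 promoters. At 2-fold or more it was in 7 of 221 promoters of higher genes (3.17%) and 3 of 199 of lower genes (1.51%). Over all called genes it was in 4.89% of the higher and 4.60% of the lower. The shorter site was present in 30.6% of the same 62, in 36.6% of tested genes and in 21.2% of all promoters. The AP-1 letters TGANTCA were in 6.45% and the RUNX core TGTGGT in 9.68% of those 62, beside 4.74% and 11.5% of tested genes, all on both strands. Each match is a description of letters in this window.

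Genes of prostaglandin synthesis rose at the first steps of the pathway and not throughout. Of 9 tested genes of the pathway, 5 were higher and 1 lower (median 1.23). The cytosolic phospholipase Pla2g4a, which frees arachidonic acid from membranes, lay at 11.12 to 11.99 (median 11.62) in the hCG group and 8.03 to 9.21 (median 8.56) in GnRH+eCG. It was detected on all 12 arrays, so this difference of 3.05 ± 0.18 (adjusted p = 1.22e-11) was measured on both sides. Ptgs2, the inducible cyclooxygenase that makes prostaglandin H from arachidonic acid, lay at 11.51 to 13.25 (median 12.97) in the hCG group and 6.59 to 9.12 (median 7.54) in GnRH+eCG, a difference of 5.15 ± 0.33 (adjusted p = 3.21e-11).

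Downstream enzymes differed in direction. The prostaglandin D synthase Ptgds rose by 1.61 ± 0.37 with overlapping groups, and the prostacyclin synthase Ptgis fell by 1.36 (SE 0.25), at 7.88 to 9.30 in the hCG group and 9.33 to 10.40 in GnRH+eCG. Ptges, the inducible prostaglandin E synthase, was outside the tested probes because it was detected on 0 hCG and 5 GnRH+eCG arrays; its values were 6.30 to 6.64 in the hCG group and 7.16 to 8.90 in GnRH+eCG. Another prostaglandin E synthase, Ptges2, differed by -0.38 ± 0.17 (adjusted p = 0.0774), a call made without hCG rat 11 (adjusted p = 0.00979) or without GnRH+eCG rat 8 (0.0407). Hpgd, which inactivates prostaglandins, differed by 1.23 ± 0.51 (adjusted p = 0.0587), and leaving out GnRH+eCG rat 7 or hCG rat 11 brought it to 0.0369 or 0.0478. With every rat of both groups kept, the fit to the 12 arrays alone gave Hpgd an adjusted p = 0.02.

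**Figure D2:**
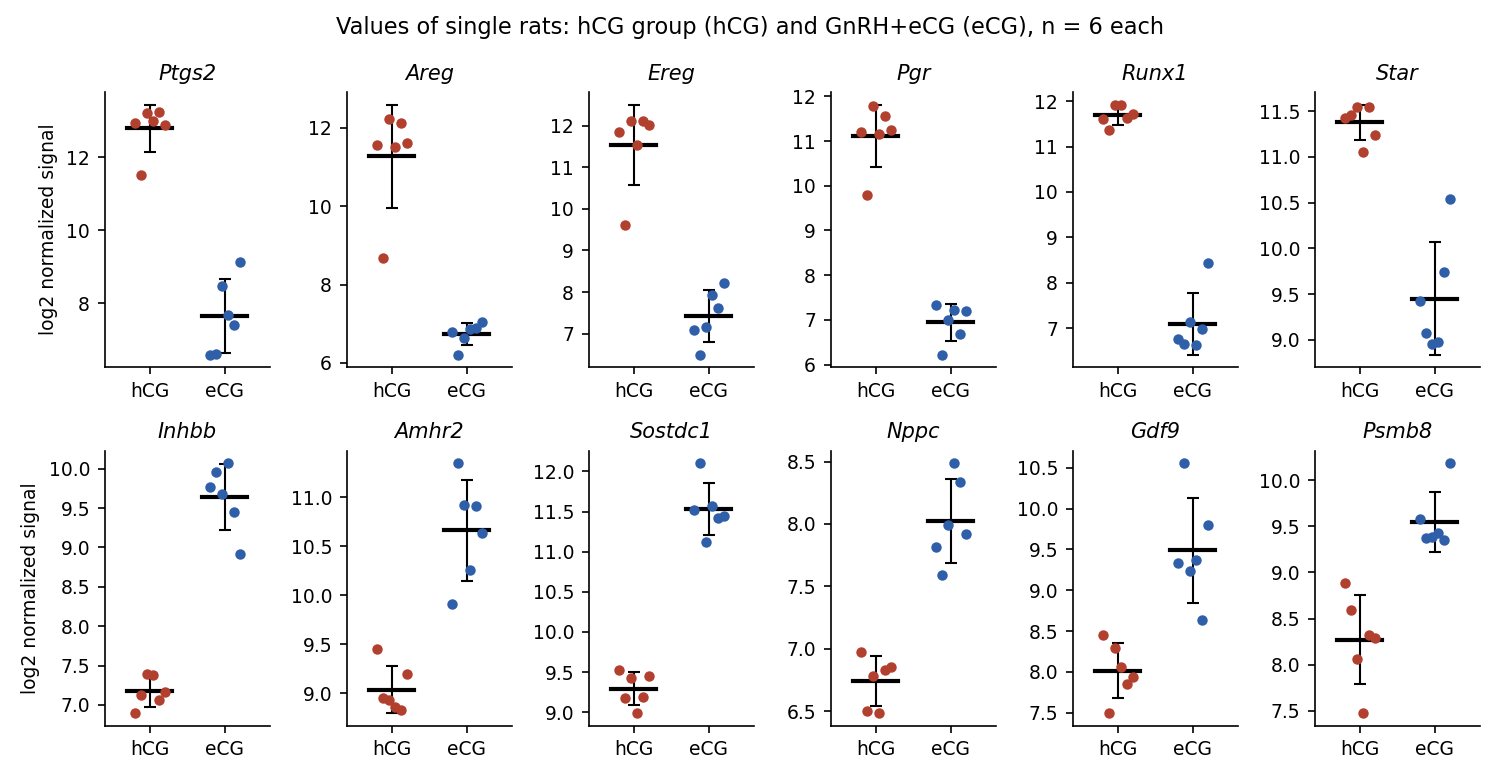
Values of single rats for 12 genes (y axis, log2 normalized signal, separate scale per gene; red hCG group on the left, blue GnRH+eCG on the right, bars mean ± SD, n = 6 each). The groups do not overlap in any of the 12 panels; hCG rat 11 is the low red point in Ptgs2, Areg, Ereg and Pgr, and GnRH+eCG rat 21 the high blue point in Runx1, Star and Psmb8.

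Of 15 tested transcription factors known from the ovulatory response, 9 were higher and 2 lower, with a median of 0.78. Runx1, a factor of the RUNX family, lay at 11.37 to 11.92 (median 11.67) in the hCG group and 6.63 to 8.43 (median 6.87) in GnRH+eCG, where 2 arrays detected it. The hCG rats were close together, GnRH+eCG rat 21 stood above its group, and the difference was 4.59 ± 0.63 (adjusted p = 6.98e-06). The progesterone receptor Pgr, needed for follicle rupture in mice, lay at 9.79 to 11.79 (median 11.22) in the hCG group and 6.22 to 7.34 (median 7.10) in GnRH+eCG, and it rose by 4.18 ± 0.23 (adjusted p = 2.57e-12). The factor Cebpb rose by 1.98 ± 0.31 and the hypoxia factor subunit Hif1a by 0.66 ± 0.12.

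Genes of the expanded matrix rose by smaller amounts. Of 8 tested genes 5 were higher and 0 lower, with a median of 0.92. The hyaluronan synthase Has2 had a wide spread in the hCG group, 6.75 to 8.58 (median 7.81) against 6.40 to 7.36 (median 6.76) in GnRH+eCG; the groups overlapped and the difference was 0.93 ± 0.22 (adjusted p = 0.00167). Versican, Vcan, a proteoglycan that links to hyaluronan, was bright in both groups, at 12.19 to 12.44 in the hCG group and 11.44 to 12.07 in GnRH+eCG, and rose by 0.53 ± 0.11. The hyaluronan receptor Cd44 rose by 0.81 ± 0.12 and the heparan sulfate proteoglycan Sdc1 by 1.92 ± 0.40. The protease Adamts1, which cleaves versican, differed by 1.25 ± 0.75 (adjusted p = 0.191), with hCG rats at 11.04 to 12.21 and GnRH+eCG rats at 9.38 to 12.13; the fit to the 12 arrays alone gave adjusted p = 0.0279. Sdc4 differed by 0.91 ± 0.40 (adjusted p = 0.0757), and without GnRH+eCG rat 21, which stood high, by 1.21 (adjusted p = 0.0151). With every rat of both groups kept, the fit to the 12 arrays alone gave Sdc4 an adjusted p = 0.024.

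Genes of the sugar supply for that matrix changed at selected steps, with 4 of 9 tested higher and 1 lower. Gfpt2, an isoform of the rate-limiting enzyme of hexosamine synthesis, lay at 8.27 to 9.09 in the hCG group and was detected on 0 GnRH+eCG arrays, which makes it at least 4.09-fold higher. Its close relative Gfpt1 differed by 0.08 ± 0.10 (adjusted p = 0.585). Uap1, which makes UDP-N-acetylglucosamine, a hyaluronan precursor, rose by 2.00 ± 0.31, and Ugdh, which makes the other precursor UDP-glucuronate, by 1.09 ± 0.25. Uxs1, which turns UDP-glucuronate into UDP-xylose for proteoglycan chains, lay at 12.09 to 12.59 in the hCG group and 10.14 to 11.94 in GnRH+eCG and rose by 1.58 ± 0.41.

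Meiotic arrest depends on cyclic nucleotides passed from the cumulus to the oocyte. Of 11 tested genes of this system 4 were higher and 3 lower. Nppc, the natriuretic peptide precursor that sustains arrest in mice, lay at 6.48 to 6.98 (median 6.81) in the hCG group, detected on 1 array, and 7.59 to 8.49 (median 7.96) in GnRH+eCG, detected on 6. The groups did not overlap and the difference was -1.28 ± 0.27 (adjusted p = 0.000661). Its receptor Npr2 differed by -0.58 ± 0.32 (adjusted p = 0.155). Among the phosphodiesterases, Pde10a lay at 9.36 to 10.39 in the hCG group and 6.54 to 8.11 in GnRH+eCG and rose by 2.54 ± 0.21, and the cAMP-specific Pde4d rose by 1.38 ± 0.22. Prkar1a, a regulatory subunit of protein kinase A, rose by 0.78 ± 0.15.

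Genes of follicle growth fell, 9 of 18 tested lower and 2 higher (median -0.61), against 22.4% of all genes lower. Inhbb, the beta-B subunit of inhibin and activin, lay at 6.90 to 7.39 (median 7.15) in the hCG group and 8.92 to 10.07 (median 9.73) in GnRH+eCG, a difference of -2.47 ± 0.33 (adjusted p = 4.64e-06). It was detected on 3 of 6 hCG arrays. The receptor of anti-Müllerian hormone, Amhr2, fell by 1.63 (SE 0.20) and the hormone itself, Amh, by 1.08 (SE 0.34), the receptor without overlap and the hormone with it. The estrogen receptor Esr2, detected on 0 hCG arrays, was at least 1.77-fold lower. Igf1r, the receptor of insulin-like growth factor 1, rose by 0.73 ± 0.20. Aromatase, Cyp19a1, differed by -1.24 ± 0.66 (adjusted p = 0.139), with hCG rats at 9.20 to 10.79 and GnRH+eCG rats at 9.62 to 12.32; the fit to the 12 arrays alone gave adjusted p = 0.0337. The receptor of hCG itself, Lhcgr, differed by -0.75 ± 0.74 (adjusted p = 0.447), with GnRH+eCG rat 8 at 7.97 far under a group median of 11.35.

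Signalling of the TGF-beta, BMP, Wnt and Notch families held 5 higher and 6 lower genes of 21 tested. Sostdc1, a secreted antagonist of BMP and Wnt ligands, lay at 8.99 to 9.52 (median 9.31) in the hCG group and 11.12 to 12.11 (median 11.48) in GnRH+eCG, a difference of -2.24 ± 0.24 (adjusted p = 1.73e-07). The decoy receptor Bambi differed by -1.70 ± 0.21. The BMP receptor Bmpr1b, at 7.13 to 7.28 in the hCG group and 8.24 to 9.13 in GnRH+eCG, differed by -1.70 ± 0.27, while its paralogue Bmpr1a differed by -0.16 ± 0.11 (adjusted p = 0.261).

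**Figure D3:**
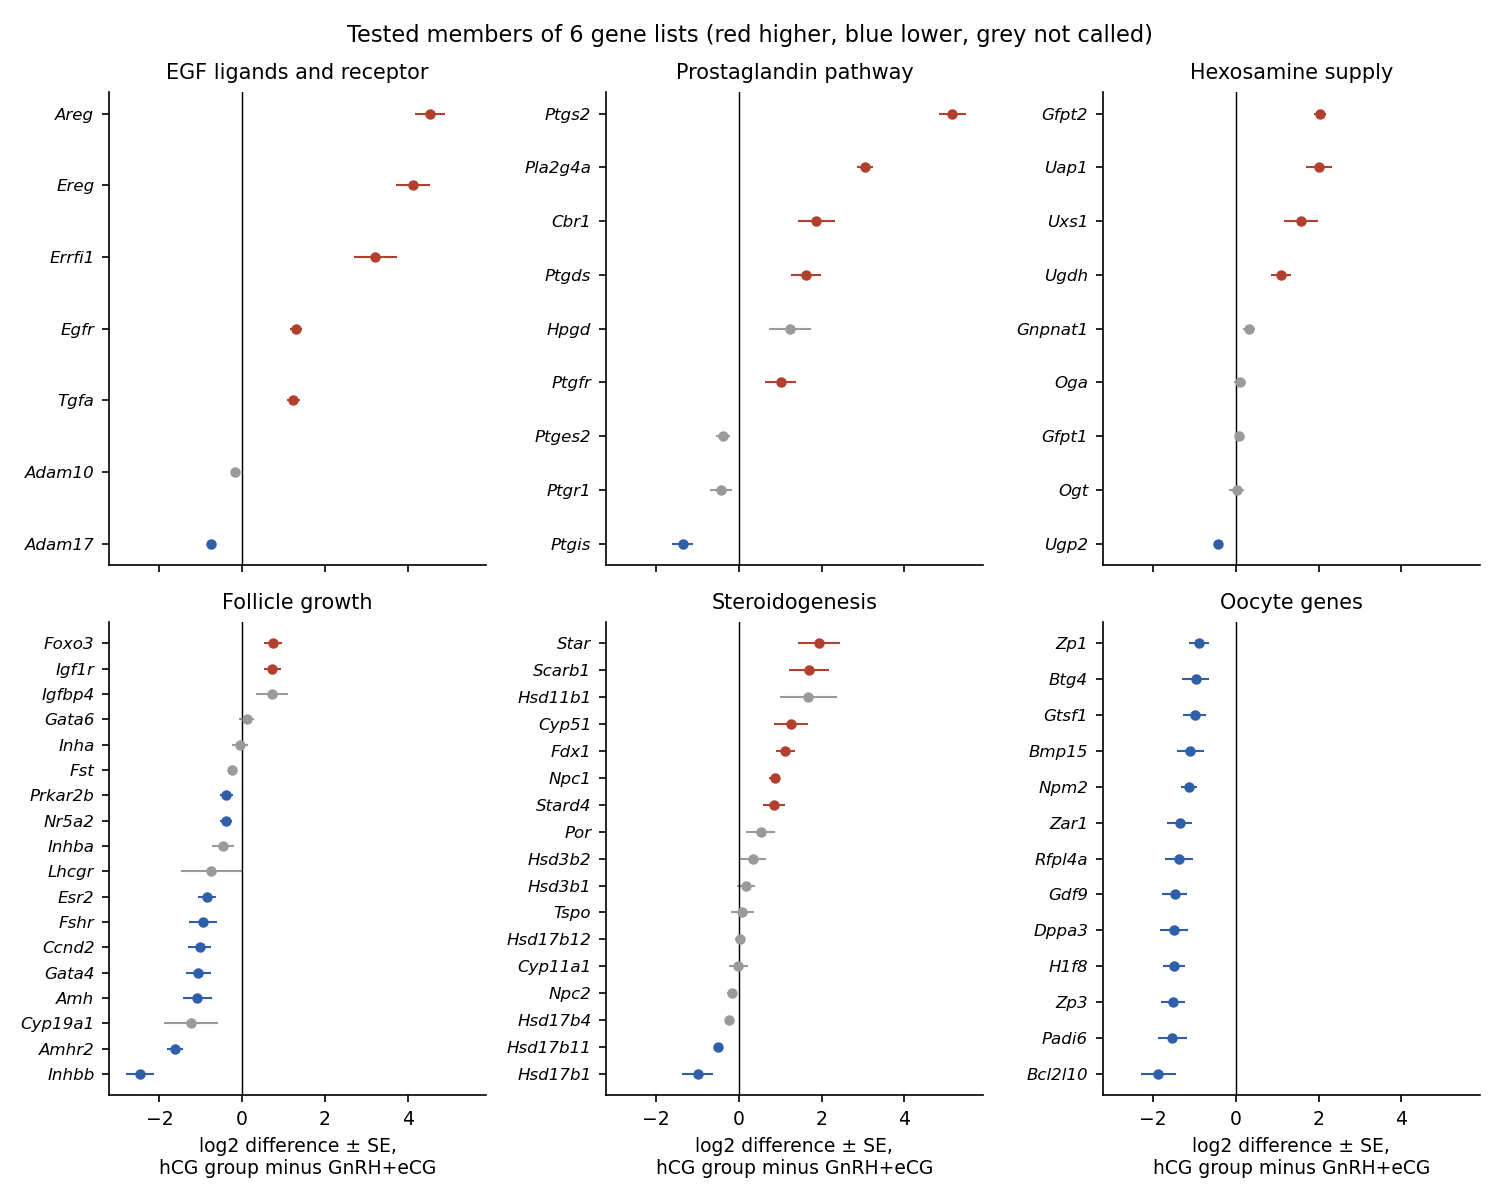
Difference between the hCG group and GnRH+eCG (x axis, log2 units, point ± SE, n = 6 rats each) for the tested genes of 6 lists, with red for higher, blue for lower and grey for not called. The prostaglandin and EGF lists hold rises above 4 log2 units next to falls and uncalled genes, and the 13 oocyte genes all lie on the lower side, between -1.87 and -0.89.

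Of 17 tested genes of steroid synthesis, 6 were higher and 2 lower (median 0.34). Star, which carries cholesterol into mitochondria, lay at 11.05 to 11.55 (median 11.44) in the hCG group and 8.96 to 10.54 (median 9.25) in GnRH+eCG, and it rose by 1.93 ± 0.51 (adjusted p = 0.00446). The electron donor of the mitochondrial steroid enzymes, Fdx1, lay at 13.76 to 14.39 in the hCG group and 12.44 to 13.61 in GnRH+eCG, and rose by 1.11 ± 0.23. The lysosomal cholesterol exporter Npc1 rose by 0.87 ± 0.13. Cyp11a1, the side-chain cleavage enzyme, was bright and differed by -0.01 ± 0.23 (adjusted p = 0.972). Hsd17b11, a dehydrogenase that also sits on lipid droplets, fell by 0.51 (SE 0.08), a call lost with median scaling (adjusted p = 0.177). The glucocorticoid-activating enzyme Hsd11b1 differed by 1.68 ± 0.69 (adjusted p = 0.0547) with GnRH+eCG rats at 8.91 to 11.52; it passed without GnRH+eCG rat 21 (0.028) and in the fit to the 12 arrays alone (0.00128).

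Cholesterol synthesis held 6 higher and 1 lower of 16 tested genes. Idi1, an enzyme of isoprenoid assembly, lay at 12.31 to 12.48 in the hCG group and 9.77 to 11.35 in GnRH+eCG and rose by 2.17 ± 0.58. The sterol enzymes Nsdhl and Sc5d rose by 1.12 ± 0.33 and 0.92 ± 0.19, and Insig2, which holds back sterol-driven transcription, fell by 0.82 (SE 0.17). Lipid genes held 8 higher and 3 lower of 23. The droplet coat protein Plin3 fell with little spread, at 7.94 to 8.44 (median 8.28) in the hCG group and 9.61 to 10.16 (median 9.71) in GnRH+eCG, by 1.55 (SE 0.12; adjusted p = 1.28e-09). Soat1, which esterifies cholesterol, rose by 0.92 ± 0.24, the fatty acid elongase Elovl5 by 0.91 ± 0.21 and the acyl-CoA synthetase Acsl1 by 0.89 ± 0.21.

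Genes of sugar breakdown did not move as a block, with 3 of 17 tested higher and 6 lower. Pfkfb3, which makes the activator of phosphofructokinase, lay at 8.94 to 9.78 in the hCG group and 6.39 to 8.65 in GnRH+eCG and rose by 2.37 ± 0.47. Pfkm, a subunit of phosphofructokinase itself, lay at 7.57 to 9.17 in the hCG group and 9.96 to 10.51 in GnRH+eCG and fell by 1.68 (SE 0.25). The isomerase Gpi fell by 0.71 (SE 0.14) and the lactate and pyruvate carrier Slc16a1 by 0.63 (SE 0.12). A pair of enzymes outside this list also fell in the group of genes with the smallest p, the galactose mutarotase Galm by 2.05 (SE 0.16) and the pyrimidine enzyme Dhodh by 1.60 (SE 0.14).

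Genes of amino acid supply were higher for 5 of 10 tested and lower for 0 (median 0.75). The cationic carrier Slc7a1 rose by 1.93 ± 0.53, the asparagine synthetase Asns by 1.64 ± 0.24, the cystine carrier Slc7a11 by 1.18 ± 0.19 and the large neutral carrier Slc7a5 by 0.92 ± 0.21. Asns was detected on 1 GnRH+eCG array. Atf4, a factor known to drive such genes under amino acid shortage, rose by 1.39 ± 0.26, at 10.84 to 11.43 in the hCG group and 9.19 to 10.00 in GnRH+eCG. Bcat1, which starts the breakdown of branched-chain amino acids, lay at 10.43 to 10.81 (median 10.51) in the hCG group and 6.94 to 8.43 (median 7.63) in GnRH+eCG, a rise of 2.96 ± 0.36 (adjusted p = 1.2e-06).

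Of 30 tested redox and glutathione genes 6 were higher and 3 lower (median -0.03). The glutathione transferase Gsta5 stood out at 11.75 to 12.88 (median 12.52) in the hCG group and 7.78 to 9.87 (median 8.93) in GnRH+eCG, a rise of 3.46 ± 0.55 (adjusted p = 3.81e-05). Its probe may share signal with near-identical family members. The mitochondrial superoxide dismutase Sod2 rose by 1.13 ± 0.18, and the glutathione synthesis genes Gclm and Gss by 0.92 ± 0.19 and 0.69 ± 0.16.

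Aldo-keto reductases, enzymes that reduce steroids, prostaglandins and aldehydes, were higher for 4 of 8 and lower for 1. Akr1c2 was at 11.03 to 11.28 (median 11.14) in the hCG group and detected on 0 GnRH+eCG arrays, so it was at least 24.6-fold higher after background correction (adjusted p = 2.47e-15). Its log2 difference was 4.72, and 3.85 at the lowest under other settings. Akr1b8 was detected in every rat, at 11.11 to 12.06 in the hCG group and 7.85 to 9.51 in GnRH+eCG, and rose by 2.82 ± 0.25. Akr1c3 rose by 2.05 ± 0.56 and Akr1c14 by 0.70 ± 0.14; these family members are near copies, and a probe may read more than its own gene. The sulfotransferase Sult1b1, of another detoxifying family, rose by 3.33 ± 0.15 with 2 GnRH+eCG arrays detecting it.

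Cell cycle genes were lower for 8 of 30 tested and higher for 4. Cdkn1a, the cell cycle inhibitor p21, lay at 9.25 to 10.55 (median 10.16) in the hCG group and 6.48 to 8.09 (median 6.53) in GnRH+eCG, where rat 21 alone was detected; it rose by 3.27 ± 0.52 (adjusted p = 3.89e-05). The kinase Cdk6 rose by 1.51 ± 0.14. The replication helicase subunit Mcm6 fell by 1.28 (SE 0.21) and the thymidylate synthase Tyms by 1.19 (SE 0.16), both without overlap. Survival genes held 4 higher and 3 lower of 12: Mcl1, which blocks apoptosis, rose by 0.90 ± 0.19 and the stress gene Gadd45b was at least 3.96-fold higher, while the apoptosis inhibitor Birc3 fell by 1.44 (SE 0.30).

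Of 35 tested proteasome genes, 7 were higher and 7 lower, each a share near that of all genes. Among the named members, Psmb8, an inducible catalytic subunit, was at 7.47 to 8.89 (median 8.31) in the hCG group and 9.35 to 10.19 (median 9.41) in GnRH+eCG (-1.28 ± 0.21, adjusted p = 4.95e-05), and Psmb9 at 10.18 to 11.01 in the hCG group and 11.24 to 11.75 in GnRH+eCG (-0.92 ± 0.14). Psmb10, a further inducible subunit named after its value was seen, differed by -0.54. The ATPase subunit Psmc4 of the regulatory cap rose by 0.46 ± 0.08.

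Large housekeeping groups moved little. Of 42 tested ribosomal protein genes, 0 were called in either direction by limma, with a median difference of 0.01 and a range of -0.26 to 0.64, the top belonging to Rps16 (adjusted p = 0.143; 0.0275 in the fit to the 12 arrays alone). Oxidative phosphorylation held 2 higher and 8 lower of 38 (median -0.05). Cytochrome c, Cycs, was higher by 0.39 ± 0.10 and the ATP synthase subunit Atp5f1d by 0.74 ± 0.16. Among the lower genes, Atp5f1c differed by -0.41 ± 0.10 and Ndufs3 by -0.40, both calls lost with median scaling (adjusted p = 0.352 and 0.264). Splicing genes held 2 higher and 3 lower of 25; Hnrnpa3 fell by 0.66 (SE 0.09) and Ddx5 rose by 0.39 ± 0.09. Chaperones held 1 higher and 3 lower of 17, and secretory and ER stress genes 5 higher and 3 lower of 24.

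**Figure D4:**
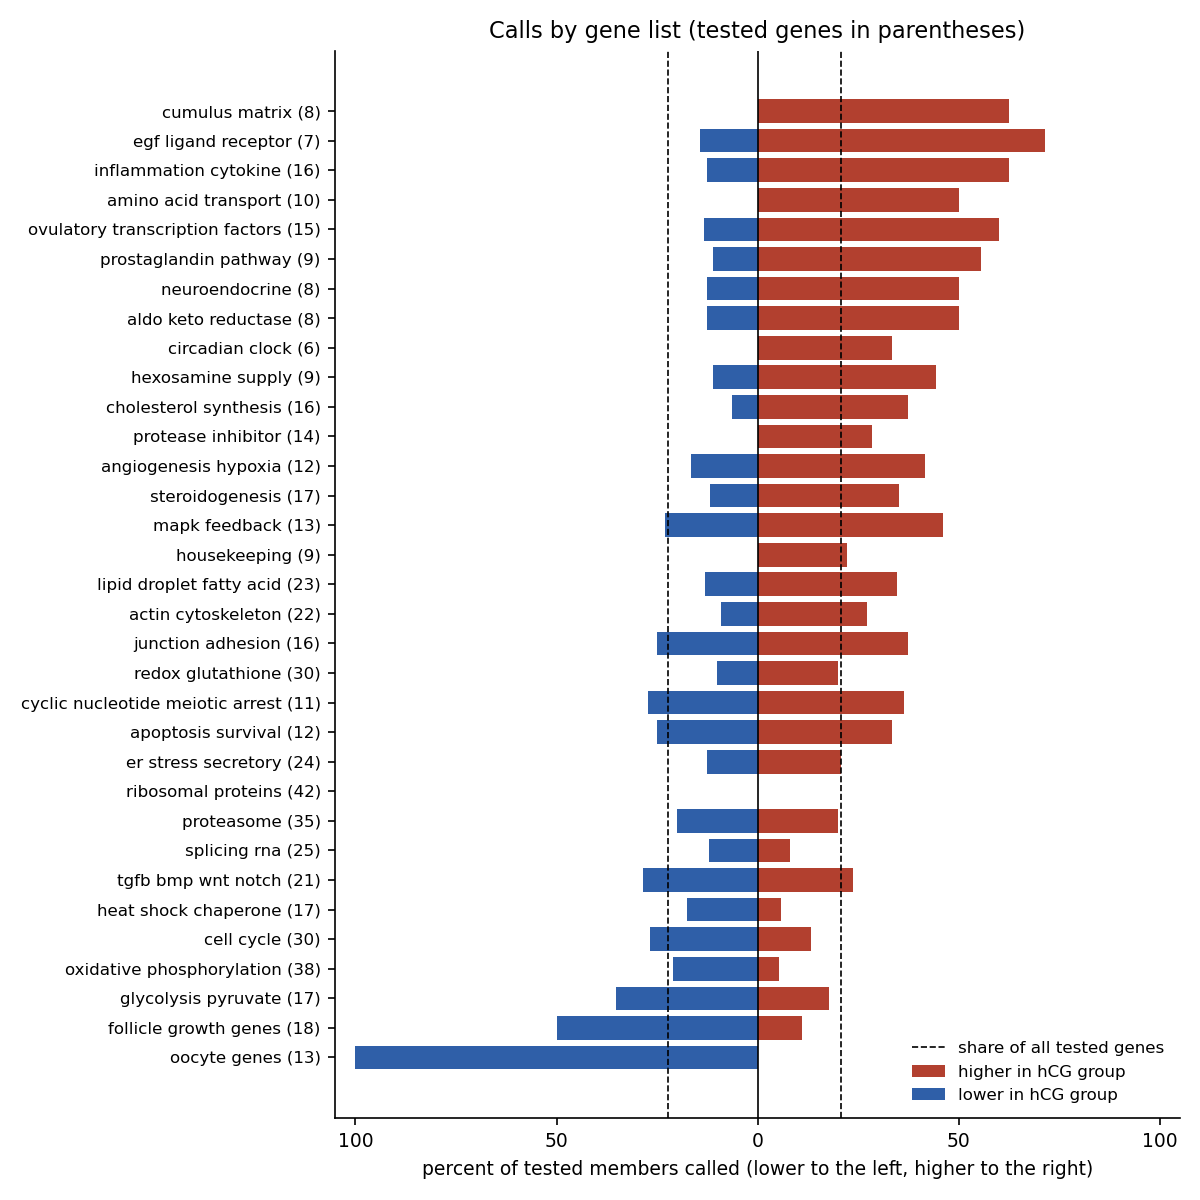
Share of tested genes called higher (red, to the right) and lower (blue, to the left) in the hCG group for 33 gene lists, with the number of tested genes in parentheses. Dashed lines mark the shares over all 4924 tested genes, 20.7% higher and 22.4% lower; the matrix, EGF and inflammation lists have the longest red bars, ribosomal proteins show no call, and the oocyte list is lower throughout.

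Of 43 inflammation and cytokine genes on the array, 16 were tested, with 10 higher and 2 lower (median 0.96). Among the tested genes, 3 were detected in all hCG rats and 0 GnRH+eCG rats, so they had to be higher to enter. Among untested cytokine genes, Il6, Il1b, Tnf and Cxcl2 were detected on no array. Ccl2 was detected on 1 hCG and 3 GnRH+eCG arrays, and Lif on 2 and 0. Tnfrsf12a, a receptor of the TNF family, lay at 9.51 to 11.47 (median 11.01) in the hCG group and 6.52 to 8.59 (median 6.92) in GnRH+eCG, and it rose by 3.63 ± 0.47 (adjusted p = 2.72e-06). Cxcl10, a chemokine that attracts T cells, was at least 6.42-fold higher, the oncostatin M receptor Osmr at least 3.21-fold and the NF-kappa-B subunit Nfkb1 at least 2.13-fold; all hCG arrays and 0 GnRH+eCG arrays detected each of them. Nfkbia, which holds NF-kappa-B in the cytoplasm, differed by -0.26 ± 0.15 (adjusted p = 0.16), and by -0.37 without hCG rat 11 (adjusted p = 0.0443). Of 15 leukocyte markers on the array 4 were tested and 6 were detected on no array. The summed signal of the tested markers ran between 970 and 2182 in the hCG group and between 586 and 2342 in GnRH+eCG. Cd14 and S100a8 rose by 0.98 ± 0.17 and 1.50 ± 0.33. Cd74 differed by -0.32 ± 0.48 (adjusted p = 0.631) and Fcer1g by -0.24, neither called. Of the untested markers, C1qa, C1qb, Cd3g and Tyrobp were detected on 0 hCG and 1 to 3 GnRH+eCG arrays, and S100a9 on 2 hCG and 0 GnRH+eCG arrays. The part of leukocytes in the cytokine changes was not tested.

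Of 32 genes on the array known from neurons and endocrine cells, 8 were tested, with 4 higher and 1 lower (median 1.63). Among the tested genes, 2 were detected in all hCG rats and 0 GnRH+eCG rats, so they had to be higher to enter. Of the untested genes, Scg2 and Nefm were detected on 4 hCG and 0 GnRH+eCG arrays, and Scg3 on 0 and 4. Syt1, Chga, Vgf, Npy and Stmn2 were detected on 0 of the 12 arrays. Adcyap1, which encodes the peptide PACAP, lay at 11.24 to 12.22 (median 11.49) in the hCG group and 6.93 to 8.09 (median 7.67) in GnRH+eCG, a rise of 4.04 ± 0.29 (adjusted p = 2.3e-10). The neurofilament subunit Nefl lay at 10.05 to 12.00 in the hCG group and was detected on 0 GnRH+eCG arrays. It was at least 27-fold higher after background correction, and 15.3-fold higher with quantile normalization without that correction. Ptprn, a protein of dense-core secretory vesicles, was at least 6.4-fold higher. The vesicle fusion protein Snap25 varied most, at 7.49 to 11.44 (median 10.37) in the hCG group and 6.21 to 6.81 in GnRH+eCG, a rise of 3.38 ± 0.61.

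Adhesion and junction genes held 6 higher and 4 lower of 16. The collagen receptor subunit Itga2 was at least 8.11-fold higher, its partner Itgb1 rose by 0.53 ± 0.11 from a bright level, and the secreted protein Cthrc1 rose by 3.70 ± 0.32. The laminin chain Lama1 fell by 0.99 (SE 0.14). Gja1, the main gap junction protein of cumulus cells, was near the top of the scale in all rats and differed by -0.33 ± 0.14 (adjusted p = 0.058); it was called without hCG rats 10, 11 or 12 or GnRH+eCG rat 21 (0.0184 to 0.0408) and with the rat-number set as a block (0.035). Its difference was -0.06 in rats 1 to 12 (adjusted p = 0.809) and -0.60 in rats 13 to 24 (adjusted p = 0.0293). Actin and cytoskeleton genes held 6 higher and 2 lower of 22. The coactivator Myocd, known for driving smooth muscle genes, lay at 7.84 to 8.87 in the hCG group and 9.86 to 11.04 in GnRH+eCG and fell by 2.08 (SE 0.26), and the myosin Myh10 by 1.09 (SE 0.12). Tagln2 rose by 1.28 ± 0.20 and the tropomyosin Tpm4 by 0.85 ± 0.13.

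Vessel and hypoxia genes held 5 higher and 2 lower of 12, among them the lymphatic growth factor Vegfc (1.59 ± 0.23), the lipoprotein receptor Vldlr (1.57 ± 0.36) and the mitophagy receptor Bnip3l (-0.71 ± 0.10). Of 9 endothelial markers on the array 2 were tested, with a summed signal of 295 to 755 in the hCG group and 182 to 319 in GnRH+eCG. Esam, an endothelial adhesion molecule, rose by 0.88 ± 0.34 (adjusted p = 0.0406, up to 0.123 with 1 array left out), and Tek differed by 0.37 without a call. Of the untested markers, Emcn was detected on 4 hCG and 0 GnRH+eCG arrays, and Egfl7 and Plvap each on 1 and 0. Vwf lay the other way, at 6.17 to 6.31 in the hCG group and 6.51 to 7.02 in GnRH+eCG, detected on 0 and 1 arrays. Cdh5, Flt1 and Tie1 were detected on no array. The part of endothelial cells in the vessel genes was not tested. Proteases and inhibitors held 4 higher and 0 lower of 14. The metalloproteinase inhibitor Timp3 rose by 1.24 ± 0.13 without overlap, Timp1 by 1.61 ± 0.52 with it, and the cathepsin Ctsb by 0.70 ± 0.18. The clock gene Per1, detected on 0 GnRH+eCG arrays, was at least 3.29-fold higher, one of 2 higher genes among 6 tested clock genes.

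Oocyte genes were lower without exception, 13 of 13 tested, with a median of -1.37. The growth factor Gdf9, secreted by the oocyte to its cumulus, lay at 7.50 to 8.46 (median 8.00) in the hCG group and 8.64 to 10.56 (median 9.36) in GnRH+eCG, a difference of -1.47 ± 0.30 (adjusted p = 0.00054). Zp3, a zona pellucida protein, lay at 8.94 to 9.89 in the hCG group and 10.12 to 12.08 in GnRH+eCG (-1.52 ± 0.30). The oocyte linker histone H1f8 differed by -1.50 ± 0.26, the maternal factor Zar1 by -1.36 ± 0.30, the nuclear chaperone Npm2 by -1.13 ± 0.20 and the apoptosis regulator Bcl2l10 by -1.87 ± 0.43. The summed signal of the 7 tested oocyte markers ran between 1956 and 3265 in the hCG group and between 3826 and 14464 in GnRH+eCG, with Mos detected on no array. In RNA from whole complexes, fewer oocytes per cumulus cell, less RNA per oocyte and more RNA per cumulus cell cannot be told apart. Among other marker lists, 0 of 10 granulosa and cumulus genes were higher and 5 lower, 1 of 4 mural granulosa genes was higher and 1 lower, 1 of 2 endothelial genes was higher, and 0 of 3 erythrocyte and 0 of 2 oviduct genes were called. Of 8 theca and stroma genes only Cyp17a1, the androgen-making enzyme, was called, at 6.32 to 7.61 in the hCG group and 6.49 to 10.85 in GnRH+eCG (-1.83 ± 0.57), while Insl3, Pdgfra, Postn and Tagln were detected on no array.

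Other large changes with detection in both groups and no overlap, which the rule for naming them required, included the chloride channel family protein Clic5 (2.85 ± 0.35), the pantetheinase Vnn3 (2.92 ± 0.53) and the adhesion receptor Pvr (2.98 ± 0.43). Mfap3l, at 9.18 to 9.89 in the hCG group and 6.48 to 7.27 in GnRH+eCG, had one of the smallest p (2.98 ± 0.15, adjusted p = 2.48e-13). The transcriptional corepressor Cbfa2t3 fell most among named genes, at 7.43 to 9.04 (median 8.41) in the hCG group and 10.80 to 11.35 (median 10.95) in GnRH+eCG (-2.69 ± 0.25, adjusted p = 2.22e-08). Aif1l, an actin-binding protein, differed by -2.00 ± 0.34, Reep6 by -1.84 ± 0.32, Spag1 by -1.81 ± 0.18, the glycosyltransferase Mgat4b by -1.77 ± 0.29 and the nucleoside diphosphate kinase Nme3 by -1.74 ± 0.16.

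Detection itself changed for 78 probes. Of these, 48 were detected in all hCG rats and 0 GnRH+eCG rats, and 30 the other way, and such probes had to differ to enter. Beside those already named, the serotonin receptor Htr1b was at least 5.6-fold higher, the chromatin protein Hmga1 5.77-fold and the ephrin Efna5 5.88-fold. Kcnk2, a potassium channel, lay at 6.30 to 6.94 in the hCG group and 7.69 to 9.12 in GnRH+eCG and was at least 4.4-fold lower, and the potassium channel Kcnj13 at least 2.82-fold. RragB, a GTPase of nutrient sensing, was at least 2.76-fold lower, the sulfotransferase Chst1 2.77-fold, the pore-forming protein Gsdmd 2.58-fold, the glutathione cycle enzyme Oplah 2.2-fold, the forkhead factor Foxn3 2.14-fold and Mapk1ip1 2.13-fold.

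The spread between rats was alike in both groups, with a median SD of 0.22 in the hCG group and 0.24 in GnRH+eCG, but single rats stood at the near edge of many changes. Among the 359 probes at least 2-fold higher, hCG rat 11 had the lowest hCG value for 164 (45.7%), against 23.1% of all tested probes. GnRH+eCG rat 21 had the highest GnRH+eCG value for 195 (54.3%), against 18.9% of all tested probes. Among the 365 probes at least 2-fold lower, hCG rat 10 had the highest hCG value for 140 (38.4%), against 15.3% of all tested probes. GnRH+eCG rat 20 had the lowest GnRH+eCG value for 146 (40%), against 12% of all tested probes. At the far edge of these falls, GnRH+eCG rat 8 had the highest GnRH+eCG value for 214 of the 365 (58.6%), against 24.5%. On the first principal component of the 12 arrays, with 59.1% of the variance, hCG arrays lay at 20.6 to 35.4 with rat 11 lowest, and GnRH+eCG arrays at -37.8 to -16.8 with rat 8 lowest and rat 21 highest. Of the 156 called genes that the naming rule gives, described here or not, 8 lost the call when 1 of the 12 arrays was left out: Hprt1 in 9 of these fits, Esam in 7, Fkbp5 in 6, Nr5a2 and Sf3a1 in 5, Cct2 and Pappa in 4 and Stip1 in 3. Their adjusted p over all arrays lay between 0.026 and 0.0406.

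**Figure D5:**
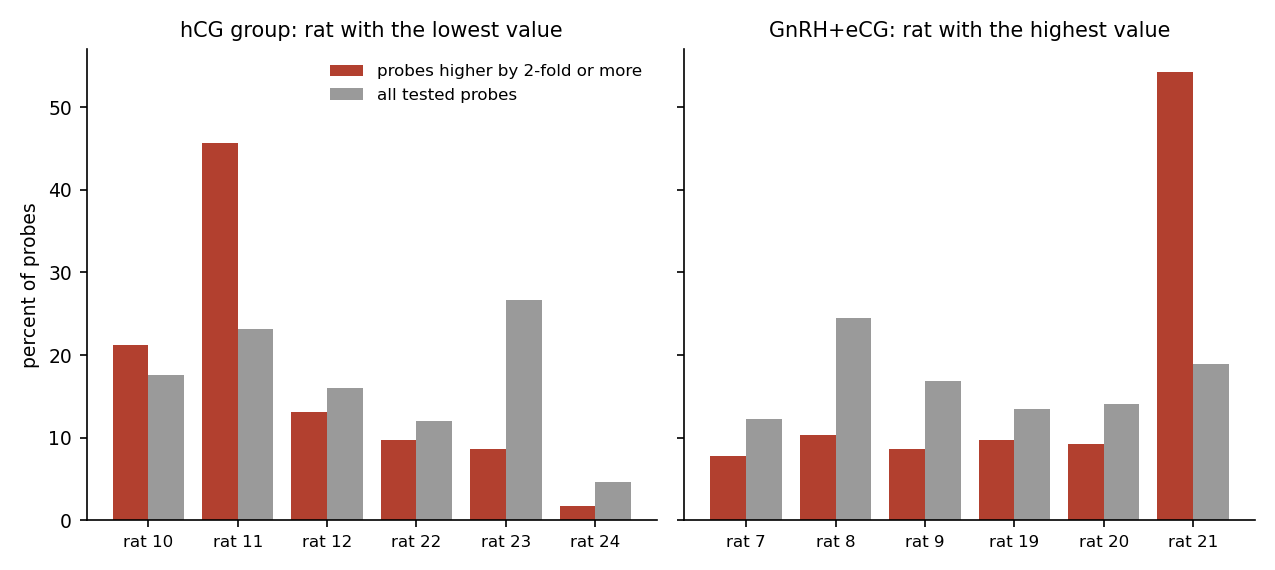
Share of probes (y axis, percent) for which each rat had the lowest value of the hCG group (left) or the highest value of GnRH+eCG (right), for 359 probes at least 2-fold higher in the hCG group (red) and all 7104 tested probes (grey). Rat 11 holds 45.7% against 23.1% on the left, and rat 21 holds 54.3% against 18.9% on the right.

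The rat numbers fall into 1 to 12 and 13 to 24, which differ in raw signal and were compared in place of a batch. Tested apart, 1043 probes were called in rats 1 to 12 and 1518 in rats 13 to 24, and 670 were called in both in the same direction, 64.2% of the first and 44.1% of the second, with 0 in opposite directions. A test of the difference between the sets called 0 probes by limma (269 at an unadjusted p under 0.05; smallest adjusted p 0.966). Ptgs2 rose by 5.33 in rats 1 to 12 and by 4.97 in rats 13 to 24, and Areg by 4.27 and 4.81. Star differed by 2.32 and 1.53 in those sets, at adjusted p = 0.0779 and 0.0755, and Gdf9 by -1.63 and -1.32 (0.0215 and 0.0652).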

How the data were processed

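RNA of cumulus-oocyte complexes was isolated with a PicoPure kit, amplified, labelled with biotin and hybridised to Illumina bead arrays, 1 array per rat, per the labels' protocols. BeadStudio is named in the submitters' processing notes; no version or setting is stated in the sources used here. The authors deposited linear signal intensity per probe, once in a table whose numbers carry commas and again as a value table; both held the same signals, with no normalization seen in them. The deposited detection score lies between 0 and 1 and rises with signal, so it was read as 1 minus the detection p-value that the file header names.

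Background correction and quantile normalization used neqc (limma 3.58.1 in R 4.3.3, offset 16) on all 24 arrays, giving log2 values that were computed here from the deposited intensity. Probes with a detection score over 0.99 on 6 or more of the 12 arrays entered lmFit and eBayes, with 1 mean for each of the 4 groups and a two-sided threshold of 0.05. Of 22226 probes, 13599 had 1 gene symbol in the platform annotation, which can be old, and 8627 had none. A gene was taken by its brightest tested probe. A bound ("at least") sets the detected group against the probe's value or, where higher, the lowest signal detected on that array. It was computed after background correction and does not cover other normalizations. On simulated data with 200 changed probes of 7104, 43.5% were recovered at 1.5-fold, 86.5% at 2-fold and 99.5% at 4-fold, with 7, 11 and 14 false calls. The simulated noise was independent between probes, and 40.7% of probes were called in the data, so these rates describe the simulation only. The number of arrays limits the precision.

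Genes named are the 10 largest rises and 10 largest falls detected on at least 4 arrays of each group without overlap, the 8 rises and 8 falls of largest bound, the 5 of smallest adjusted p each way, and from each gene or marker list up to 4 called members and up to 2 not called; not all of them are described. Psmb10 and Ptges fall outside this rule and were chosen after their values were seen, as were the genes of the other observations. Comparison, members and lists were chosen with earlier results of these data known. Alternatives changed the normalization, detection filter, arrays in the fit, variance model, threshold and rats, with their effect given in the closing section.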

Additional observations from a re-analysis of the deposited data

Results flagged for a closer look

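Values that stood apart from the other 5 rats of their group were sought for 330 groups of 6 values, from 161 genes and 4 array measures in both groups, as a gap to the nearest value of more than 0.625 of the group's range; chance alone gives about 1 in 20 groups, and 39 were found. All values are log2 signals, and no cause was tested. In the hCG group, rat 11 accounted for 12. It was lowest for Areg (8.67), Ereg (9.62), Hmga1 (7.10), Htr1b (7.34), Mfap3l (9.18), Pfkfb3 (8.94), Pgr (9.79), Ptgs2 (11.51), Spry2 (9.74), Tnfrsf12a (9.51) and Tpm4 (12.88), all genes higher in the hCG group, and highest for Itgb1 (12.24). Other hCG values were Sdc1 at 10.07 (highest) and Vnn3 at 10.20 (lowest) in rat 10, Lama1 at 7.56 and Rps16 at 9.16 in rat 12 (both lowest), and Cd14 at 8.48 (highest) and Slc7a1 at 9.08 (lowest) in rat 23.

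In GnRH+eCG, rat 21 accounted for 10. It was highest for Cdkn1a (8.09), Cebpb (8.03), Cthrc1 (7.55), Mfap3l (7.27), Psmb8 (10.19), Runx1 (8.43), Sdc4 (8.64) and Soat1 (8.19), and lowest for Bmpr1b (8.24) and Gfpt1 (9.82). Rat 8 was highest for Esam (7.62), Plin3 (10.16) and Tyms (10.27) and lowest for Kcnj13 (7.69), Lhcgr (7.97) and Pappa (6.51). Rat 9 was lowest for Kcnk2 (7.69) and Rps16 (7.93) and highest for Vegfc (8.02), and rat 7 was highest for Bmpr1a (9.54) and Ddx5 (12.19).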

How the results depend on the processing

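The count of 2893 called probes became 1860 with median scaling in place of background correction and quantile normalization, 1823 among probes detected on all 12 arrays, 1923 at an adjusted p under 0.01, and 1043 in rats 1 to 12 and 1518 in rats 13 to 24, where each group had 3 rats. The 724 probes at 2-fold or more became 380 with median scaling, 375 with quantile normalization without background correction and 339 among probes detected on all 12 arrays. Leaving out each of the 12 arrays in turn gave 2582 to 2843 called probes and 659 to 767 at 2-fold. Array weights gave 4109, no detection filter 3445, the fit to the 12 arrays alone 3092 and the rat-number set as a block 2928. The array weight of hCG rat 24 was 12.8, and those of the other arrays lay between 0.32 and 1.77. In that setting the hCG mean thus rests mainly on rat 24. Of the 2893 calls, 4 had the other sign under median scaling and 0 under the other settings. The chaperonin subunit Cct2 differed by -0.22, and by 0.0016 with median scaling (adjusted p = 0.996); the cause was not tested. Of the 156 called genes that the naming rule gives, 8 lost the call with 1 array left out, 16 with median scaling (Cct2 and Hsd17b11 among them), 6 with no detection filter and 66 in at least one rat-number set. The fold moved over 1.5 times for 25 with median scaling and 24 with quantile normalization without background correction. The main result started from the signals of the value table, and the other deposited table holds the same signals, so it gave no separate setting. No paired analysis was possible because no rat number occurs in more than 1 group. Signals near background limit the fold changes of genes not detected in one group.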

Other observations

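Further groups of genes, chosen after their values were seen and so given without support from their counts, moved in the hCG group. Of 10 tested genes of polyamine metabolism, 6 were higher and 1 lower. Ornithine decarboxylase, Odc1, lay at 11.38 to 12.14 in the hCG group and 9.89 to 10.35 in GnRH+eCG (1.74 ± 0.18, SE), Sat1, which acetylates polyamines, at 11.32 to 11.78 and 9.61 to 11.04, and Paox, a polyamine oxidase, at 6.44 to 7.11 and 7.28 to 7.64. Of 19 DNA replication genes, 13 were lower and 0 higher (median -0.64). The primase Prim1 lay at 9.04 to 9.50 in the hCG group and 10.04 to 10.98 in GnRH+eCG, and the maintenance methyltransferase Dnmt1 at 10.34 to 11.04 and 11.29 to 12.48, while the polymerase clamp Pcna overlapped, at 11.28 to 12.19 and 11.74 to 12.11.

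Of 5 tested genes of peptide precursors and their processing, 4 were higher and 0 lower; the galanin gene Gal differed by -0.03 (adjusted p = 0.955), at 8.45 to 10.53 in the hCG group and 8.89 to 10.96 in GnRH+eCG. Penk, the enkephalin precursor, lay at 7.77 to 8.87 in the hCG group and 6.18 to 6.22 in GnRH+eCG, Nmu at 7.91 to 8.36 and 6.29 to 6.47, and Pnoc at 7.03 to 7.97 and 6.24 to 6.49, each detected in all hCG rats and 0 GnRH+eCG rats. Penk, Nmu and Pnoc thus had to be higher in the hCG group to enter. The precursor genes Npy, Cartpt and Tac1 were detected on 0 of the 12 arrays. Pam, which amidates peptides, lay at 10.81 to 11.54 in the hCG group and 8.05 to 9.59 in GnRH+eCG. Of 26 tested genes with olfactory or vomeronasal receptor symbols, 8 were higher and 0 lower, with Or52ac1 at 8.79 to 10.66 in the hCG group and 6.57 to 7.82 in GnRH+eCG; these symbols come from the platform annotation and the probe sequences were not checked.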
